A study of Mus musculus with 95 samples.

Results

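The genes described here encode the subunits of oxidative phosphorylation. They were chosen by symbol: every gene whose symbol begins with Ndufa, Ndufb, Ndufc, Ndufs, Ndufv, Uqcr, Cox4 to Cox8, Atp5, mt-Nd, mt-Co, mt-Cytb or mt-Atp, together with Sdha, Sdhb, Sdhc, Sdhd and Cycs. The symbols gave 113 matches, 7 pseudogenes with "-ps" in the symbol were left out, and 106 members remained of 53465 gene entries. Of these, 93 lie in the nuclear genome and 13 in the mitochondrial genome. By symbol, the nuclear members comprise 38 of complex I and 8 complex I assembly factors (Ndufaf genes, which the rule also takes in). The others are 4 of complex II, 8 of complex III, 18 of complex IV, 16 of ATP synthase and cytochrome c (Cycs). Ndufa4 and Ndufa4l2 are counted under complex I by symbol throughout, which need not be the complex of their proteins. The mitochondrial members comprise 7 of complex I, cytochrome b of complex III, 3 of complex IV and 2 of ATP synthase.

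The respiratory chain passes electrons from NADH (through complex I) and succinate (through complex II) to complex III, cytochrome c, complex IV and oxygen, and ATP synthase uses the proton gradient so built to make ATP. Complexes I, III and IV and ATP synthase are built from subunits of both genomes: the mitochondrial genome is transcribed as long precursors that are cut into single messages, while the nuclear subunits are transcribed gene by gene and imported. Blood stem cells are known for a low rate of mitochondrial respiration relative to the progenitors they give rise to.

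The libraries were bulk SMART-Seq v4 RNA-seq, a method that amplifies full-length cDNA from small amounts of RNA, of cells sorted from mouse bone marrow under 3 names: HSC (blood stem cells), HPC-1 and HPC-2 (progenitors). All mice were labelled B6.SJL and 8 to 12 weeks of age. Steady-state mice were untreated (8 HSC, 8 HPC-1 and 7 HPC-2 libraries), and the others had received 900 cGy and 8000 Lin-Sca1+Kit+ marrow cells, with 3 libraries per population at each of 8 times from 3 to 16 weeks (3 and 4, then 5, 6 and 8, then 10, 13 and lastly 16 weeks). The labels give the same sort, negative for CD48 and positive for CD150, for all 3 populations, name no marker of donor origin, so host cells cannot be told apart from donor cells, and do not tie libraries to individual mice. A p-value here therefore measures only how libraries vary, which may be technical. Weeks 3-4 (6 libraries), 5-8 (9) and 10-16 (9) were each set against steady state within a population, and all comparisons with steady state share those control libraries.

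The labels disagree for 1 HPC-2 library, titled 3 weeks and listed as untreated, which was placed by its title. Total counts ran from 3551908 to 8492759 per library. Fewer than 10000 genes were detected in 12 of 95 libraries, among them 3 of 8 HSC and 4 of 7 HPC-2 libraries at steady state. Another check found 12 libraries, 2 of them also low in detected genes, in 6 pairs under different labels whose counts were nearly alike (chi-square per degree of freedom 1.24 to 4.5, against 15.1 for the next closest pair). They include HSC replicate 1, HPC-1 replicate 7 and HPC-2 replicates 5 and 7 at steady state, and results that rest on them are given with and without them. The summed CPM (counts divided by the library total and scaled by 1e6) of 5 HSC genes (Hlf, Mecom, Procr, Slamf1, Fgd5) was 101 to 686 in HSC at steady state, 46.4 to 145 in HPC-1 and 0 to 135 in HPC-2. The sum of Cd48, Plac8, Flt3 and Dntt was 49.6 to 466, 3962 to 8501 and 850 to 5382 in the same order. In the description numbers of the labels, each run of 12 numbers holds the 3 libraries per population of a single week and at most 1 steady-state library of each population. Week and run can therefore be told apart only through that steady-state library.

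The sequences below show which mitochondrial genes a read could identify. The nuclear genome carries copies of parts of the mitochondrial genome. mt-Co2 (chrM:7013-7696) was identical to the nuclear copy Gm28661 over all 681 aligned bases, so no read from inside that stretch could separate them. The opening of both and that of mt-Nd1, for which no nuclear copy was found in the annotation, are printed on GRCm38 from chrM:7013-7072 (plus strand), chr1:24615506-24615565 (minus strand) and chrM:2751-2810 (plus strand).
mt-Co2: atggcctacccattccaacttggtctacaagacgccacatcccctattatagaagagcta
Gm28661: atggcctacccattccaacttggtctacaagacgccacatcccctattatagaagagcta
mt-Nd1: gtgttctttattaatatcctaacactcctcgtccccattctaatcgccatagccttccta

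mt-Co1 lies between these cases: its copy Gm29216 covers 492 bases of the gene and differs at 6 of them, all within a few bases of its edge. The printed stretches are chrM:6381-6440 (plus strand) and chr1:24616138-24616197 (minus strand), with capitals at the bases that differ (T1056A, C1057T, A1059G, A1060G, C1062A and A1066T, counted from 1 at the start of mt-Co1, with the base of mt-Co1 before and that of Gm29216 after the position).
mt-Co1: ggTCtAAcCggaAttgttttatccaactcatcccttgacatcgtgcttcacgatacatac
Gm29216: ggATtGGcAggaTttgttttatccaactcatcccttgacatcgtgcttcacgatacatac

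The 13 mitochondrial members split into strongly counted and nearly empty genes along the same line. Over all libraries, mt-Cytb (cytochrome b) had a mean of 4057 CPM, mt-Co1 (the catalytic subunit of complex IV) 3765, and the complex I subunits mt-Nd1 1787, mt-Nd5 929, mt-Nd4 669, mt-Nd2 560 and mt-Nd6 282. In contrast, mt-Co3 had 8.27 CPM, mt-Co2 8.13, mt-Atp6 6.15, mt-Nd3 0.599, mt-Atp8 0.526 and mt-Nd4l 0.0839, although mt-Co2 and mt-Co3 are core subunits of the same enzyme as mt-Co1. Of the 50-base words in mt-Co2, mt-Co3, mt-Atp6, mt-Nd3 and mt-Nd4l, 98.0% to 100% also occur in another annotated gene. The share was 62.2% in mt-Nd4, 51.1% in mt-Co1, 8.19% in mt-Nd2, 7.61% in mt-Nd5 and 0% in mt-Nd1. No such copy of mt-Atp8 was found among annotated genes, which were the ones searched, and mt-Atp8 was low as well. The levels of mt-Co2, mt-Co3, mt-Atp6, mt-Nd3, mt-Nd4l, and in part mt-Nd4 and mt-Co1, are therefore uncertain, and the mitochondrial sum is in effect the sum of mt-Cytb, mt-Co1 and the ND genes.

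**Figure D1:**
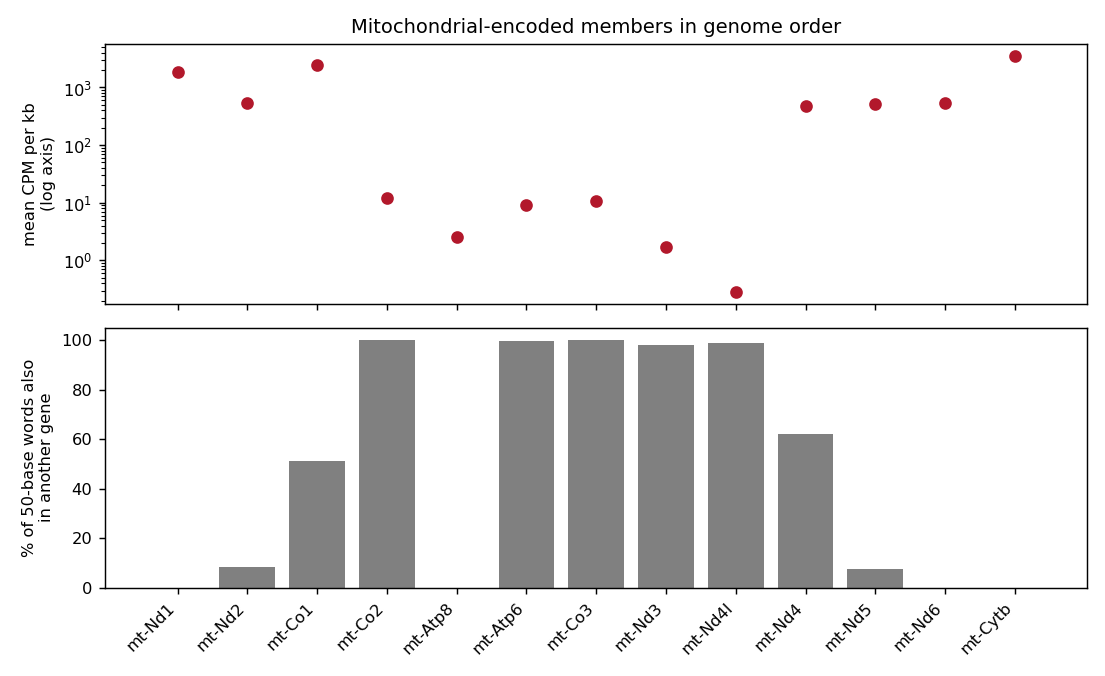
Mitochondrial members in genome order: mean level over all libraries in CPM per kb (upper panel, log axis, 1 point per gene) and the percentage of 50-base words that also occur in another annotated gene (lower panel, bars from 0). The run from mt-Co2 to mt-Nd4l lies at 0.283 to 11.9 CPM per kb, below all others (485 to 3546), and all but mt-Atp8 in that run share at least 98.0% of their words.

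Per kilobase of exon, the nuclear members differed widely within every complex. These values depend on the exon length in the annotation, so a low value is not by itself low expression. For example, the annotated transcripts of Atp5l hold 6487 distinct 50-base words and those of Atp5c1 2137. Among the genes with complex I symbols, mean levels over all libraries ran from Ndufa4l2, which had no counts, to Ndufc2 at 761 CPM per kb. Among the assembly factors they ran from Ndufaf5 (19.6) to Ndufaf8 (120). In complex II they ran from the catalytic flavoprotein Sdha (51.3) to the membrane anchor Sdhd (688), and in complex III from the core protein Uqcrc2 (102) to the small subunit Uqcr10 (777). In complex IV the range was from Cox7b2, without counts, to Cox8a (1275), and in ATP synthase from Atp5l (54.5) to the gamma subunit Atp5c1 (593). Cycs, the electron carrier between complexes III and IV, had 119 CPM per kb. Of its 50-base words, 26.15% also occur in other annotated genes, so the level of Cycs is in part uncertain too. Among nuclear members this share reached 36.74% (Atp5g2). The highest member in each of complexes I, III and IV was a small accessory subunit, and mt-Cytb exceeded them all at 3546 CPM per kb.

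In HSC the mitochondrial members were low at weeks 3-4 relative to the later weeks, while the nuclear members as a sum overlapped between all groups. The summed mitochondrial members had a lowest, median and highest value of 5944, 14049 and 24361 CPM at steady state (n = 8). They had 2379, 6490 and 7289 at weeks 3-4 (n = 6), 9380, 18146 and 21321 at weeks 5-8 (n = 9), and 9558, 15189 and 23826 at weeks 10-16 (n = 9). All 6 libraries of weeks 3-4 lay below all 18 of the later weeks, and HSC steady-state replicate 1 alone among the 8 controls lay within their range. That replicate is a near-identical library with few detected genes. It is also the only HSC control in the run of description numbers that holds week 3. Without the near-identical libraries the steady-state sums ran from 8884 upward and did not overlap with weeks 3-4. Week 3 then had no HSC control from its own run.

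The summed nuclear members of HSC ran from 25246 to 45844 CPM at steady state (median 30956), 23682 to 35818 at weeks 3-4 (30016), 32354 to 49552 at weeks 5-8 (39765) and 23848 to 53196 at weeks 10-16 (39218). The log2 ratio of the mitochondrial to the nuclear sum therefore followed the mitochondrial members: its median was -1.23 at steady state, -2.29 at weeks 3-4, -1.07 at weeks 5-8 and -1.32 at weeks 10-16. In this bulk RNA, fewer cells with many mitochondrial transcripts and fewer such transcripts per cell cannot be told apart.

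**Figure D2:**
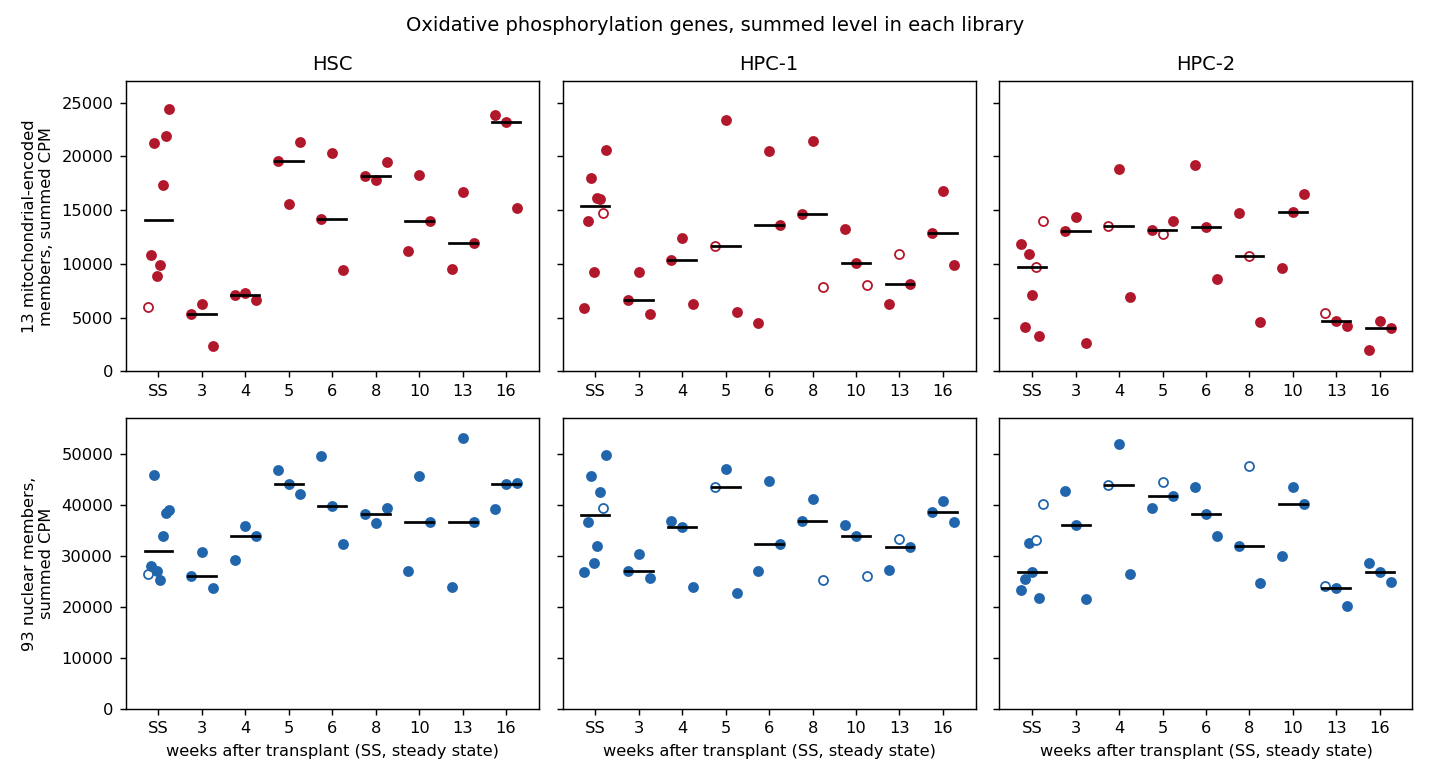
Summed CPM of the mitochondrial (upper row) and nuclear members (lower row) in each library, by population and week (SS, steady state), with open symbols for near-identical libraries and black lines for medians. In HSC, the 6 mitochondrial sums of weeks 3 and 4 (2379 to 7289 CPM) sit below those of all later weeks, and the nuclear sums of weeks 3-4 overlap with every other group.

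Against weeks 10-16, 6 mitochondrial members were called lower in HSC at weeks 3-4 (edgeR quasi-likelihood test with Benjamini-Hochberg adjustment, adjusted p under 0.05), among 17 genes called of 12541 tested (0.136%), all of them lower. No nuclear member was called among 88 tested. At an unadjusted p under 0.05, 42 nuclear members were lower and 3 higher. The share of all genes at that threshold is not given, here or for later counts of this kind. Such counts therefore have no background to be read against. DESeq2 called 2 nuclear members higher and 4 lower beside 9 mitochondrial members lower, among 221 genes called in all. The 6 called genes encode 4 complex I subunits, cytochrome b and the catalytic subunit of complex IV, so 3 of the 4 complexes with mitochondrial subunits were represented.

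For mt-Nd5 (chrM:11742-13565, exonic throughout like all mitochondrial members), a subunit of the proton-pumping arm of complex I, the lowest, median and highest values were 230, 376 and 506 CPM at weeks 3-4 and 753, 1122 and 2083 at weeks 10-16. The log2 change was -1.74 ± 0.33 (SE, edgeR, adjusted p 0.0243). For mt-Nd4 (chrM:10167-11544) the values were 101, 308 and 343 against 490, 1131 and 1504 CPM, a log2 change of -1.95 ± 0.38 (edgeR, adjusted p 0.0291). In both genes every library of weeks 3-4 lay below every library of weeks 10-16.

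mt-Nd2 (chrM:3914-4951), another membrane subunit of complex I, had 84.3, 221 and 257 CPM at weeks 3-4 against 298, 746 and 1649 at weeks 10-16, a log2 change of -2.11 ± 0.43 (edgeR, adjusted p 0.0320). mt-Nd1 (chrM:2751-3707), which helps form the quinone-binding site, had 390, 825 and 979 CPM against 1017, 1923 and 3496, a log2 change of -1.56 ± 0.33 (edgeR, adjusted p 0.0421). For mt-Nd1 the highest early library and the lowest late library were close, but the groups did not overlap.

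mt-Cytb (chrM:14145-15288), the only mitochondrial subunit of complex III, had 854, 2271 and 2644 CPM at weeks 3-4 against 3253, 5513 and 8392 at weeks 10-16, a log2 change of -1.49 ± 0.31 (edgeR, adjusted p 0.0320). mt-Co1 (chrM:5328-6872) had 661, 2221 and 2702 CPM against 3556, 4614 and 6603, a log2 change of -1.22 ± 0.26 (edgeR, adjusted p 0.0433). Again no early library reached the lowest late library.

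Beyond the called genes, all 10 tested mitochondrial members had negative changes (median log2 change -1.80, against 0.04 over all genes tested). For 8 of the 10, all 6 libraries of weeks 3-4 lay below all 9 of weeks 10-16: the 6 called genes, mt-Co3 and mt-Nd6. Over all genes tested, 0.303% were separated in that direction and 0.383% in the other. No nuclear member was separated lower, and 1 was separated higher: Atp5b, the catalytic beta subunit of ATP synthase (948, 1174 and 2148 CPM at weeks 3-4 against 185, 425 and 918). The change of Atp5b was not called (log2 change 1.18 ± 0.31, edgeR, adjusted p 0.159).

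The comparison of weeks 3-4 with weeks 5-8 was made by separation alone. The same count of 8 mitochondrial members was separated lower, with mt-Co2 in place of mt-Nd6. In addition 10 nuclear members were separated lower (Atp5j2, Cox6b1, Cox6b2, Cox6c, Cox7b, Ndufa1, Ndufa3, Ndufa4, Ndufa5 and Uqcrb, all small accessory subunits) and 5 higher (Atp5b, Ndufv1, Sdha, Uqcrc1 and Uqcrc2, which encode catalytic or core proteins). Over all genes tested, 1.47% were separated lower and 1.25% higher. These 15 were picked by their separation, and the remaining nuclear members were not separated.

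The call is limited by the runs of description numbers. Within its run, HSC at week 3 had mitochondrial sums of 2379 to 6299 CPM against 5944 in the steady-state library of that run, with 2 of 3 below it. At week 4 they were 6681 to 7289 against 10780, with 3 of 3 below. The log2 ratio of the mean of the 3 to the steady-state library was -0.35 and -0.62 in these runs, and it lay between -0.78 (week 13) and 0.90 (week 8) in the others. With the run as a block, which was added after the values were seen, no member was called and the log2 changes became 0.08 for mt-Nd1, 0.10 for mt-Nd2, 0.26 for mt-Nd4, 0.03 for mt-Nd5, -0.03 for mt-Co1 and -0.11 for mt-Cytb. The time after transplant and the run of description numbers can hardly be told apart here. Leaving out single libraries gave 0 to 8 called members, with 0 without HSC at 3 weeks replicate 1, 2 or 3, at 4 weeks replicate 1, or at 16 weeks replicate 1 or 2, and 1 without replicate 2 at 10 weeks, replicate 3 at 16 weeks or replicate 3 at 4 weeks.

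Against steady state, HSC at weeks 3-4 had 0 called members, and 4 genes were called in all (0.0319% of 12541). All 10 tested mitochondrial members were lower, each with an unadjusted p under 0.05, with log2 changes from -2.18 (mt-Nd6) to -1.16 (mt-Co1), a median of -1.67 (all genes -0.03) and a smallest adjusted p of 0.0541 (edgeR). The 88 nuclear members had a median of -0.24, with 30 positive and 58 negative changes, and an unadjusted p under 0.05 in 6 higher and 14 lower. DESeq2 called 9 members among 205 genes, limma voom 7 among 569, and edgeR without the near-identical libraries 8 among 39. Leaving out HSC steady-state replicate 1 gave 8 calls (among 39 genes), replicate 2 gave 4 (among 12), replicate 4 gave 2 (among 6) and replicate 5 gave 3 (among 8). Replicates 1 and 2 are the only HSC controls in the runs of weeks 3 and 4. Fits without either therefore lack the control of that run. The mitochondrial members thus lay just outside the threshold, and where the call fell rested on single control libraries.

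The ribosomal RNAs of the mitochondrion, which share the precursor transcripts but are no members, moved the same way and were among the called genes. In HSC the sum of mt-Rnr1 and mt-Rnr2 was 561 to 1306 CPM at weeks 3-4, 1742 to 7350 at steady state and 1655 to 6442 at weeks 10-16. The early libraries did not overlap with either group. Against steady state the log2 change was -2.44 for mt-Rnr1 and -2.16 for mt-Rnr2 (edgeR, adjusted p 0.00999 for both). Against weeks 10-16 it was -2.37 and -1.95 (edgeR, adjusted p 0.0154 for both). This list of mitochondrial genes outside the rule was added after the values were seen.

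The nuclear members of HSC at weeks 3-4 differed by complex, and none was called. Against steady state, all 4 of complex II (the succinate dehydrogenase subunits Sdha, Sdhb, Sdhc and Sdhd) had positive changes with a median log2 change of 0.41. The medians were -0.53 in complex IV (2 of 14 positive), -0.28 in complex I (9 of 37), -0.37 in complex III (3 of 8), -0.14 in ATP synthase (6 of 16) and 0.20 in the assembly factors (5 of 8). Against weeks 10-16, complex II was again positive in 4 of 4 (median 0.31) and complex IV negative in 14 of 14 (median -0.79). Complex II has no mitochondrial subunit.

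At weeks 3-4 in HSC, Cox5a, a nuclear subunit of complex IV, and Cycs changed less in size than the median mitochondrial member. They do not stand for the nuclear members in general, whose median log2 change was -0.24 against steady state and -0.54 against weeks 10-16. Most nuclear members of complex IV were lower than at steady state, as given above, and Cox5a was not. Cox5a had 132, 239 and 300 CPM in HSC at steady state, 187, 353 and 457 at weeks 3-4, 237, 341 and 448 at weeks 5-8 and 275, 332 and 411 at weeks 10-16. Its log2 change against steady state was 0.61 (adjusted p 0.340), 0.69 (0.341) and 0.62 (0.722) in the 3 windows and -0.00 between weeks 3-4 and 10-16 (edgeR, adjusted p 1.00). Cox5a levels thus overlapped between all 4 groups, with medians after transplant above that of steady state. Cycs had medians of 278, 306, 517 and 386 CPM in the same order, with log2 changes of 0.02 (adjusted p 1.00), 0.92 (0.341) and 0.47 (1.00) against steady state and -0.45 (0.698) between weeks 3-4 and 10-16 (edgeR).

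**Figure D3:**
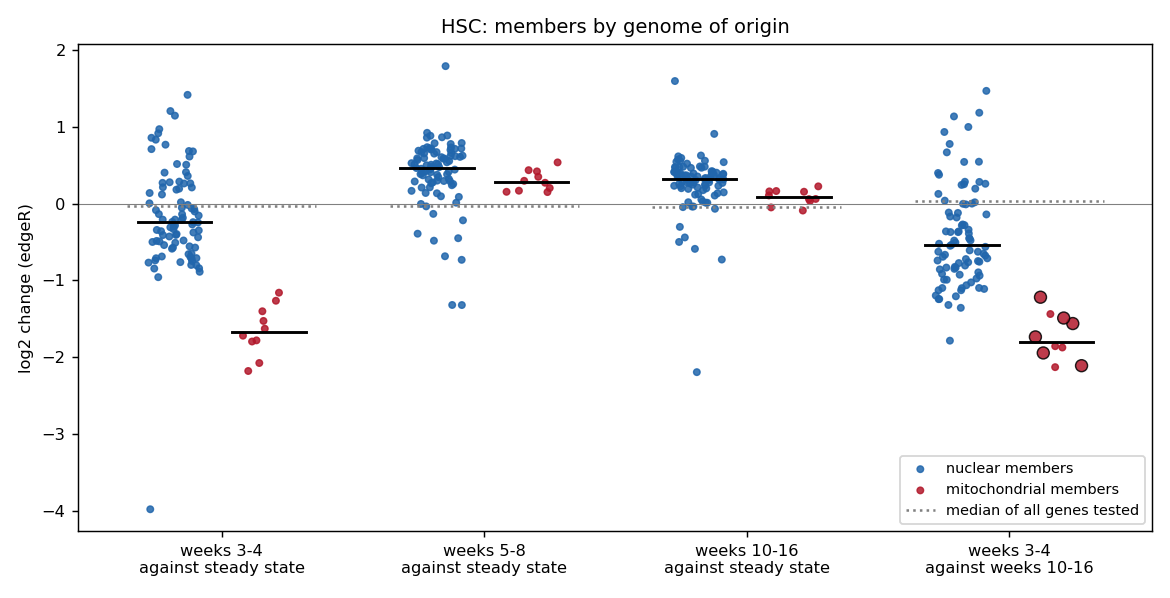
Log2 change (edgeR) of each tested member in the 4 HSC comparisons, by genome, with 1 point per gene, large outlined points for called genes, black lines for medians of the members and dotted lines for medians of all genes tested. The 10 mitochondrial members are all negative at weeks 3-4 against steady state and against weeks 10-16 (medians -1.67 and -1.80), and 6 are called in the latter.

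Length of the gene moved with these differences. Among all genes tested between HSC weeks 3-4 and weeks 10-16, the median log2 change was -0.81 for genes with under 1 kb of exon, -0.26 from 1 to 2 kb, 0.25 from 2 to 4 kb and 0.14 over 4 kb. Nuclear members had medians of -0.79 (20 genes), -0.51 (34), -0.00 (23) and -0.34 (11) in the same classes. Nuclear members under 1 kb thus had a median close to that of all genes of that length, and the mitochondrial median of -1.80 lay below that of every class. Genes under 1 kb took 2.48% to 4.93% of the counts in HSC at weeks 3-4, 3.21% to 8.24% at steady state and 3.36% to 9.01% at weeks 10-16. The part of gene length in these results was not tested.

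**Figure D4:**
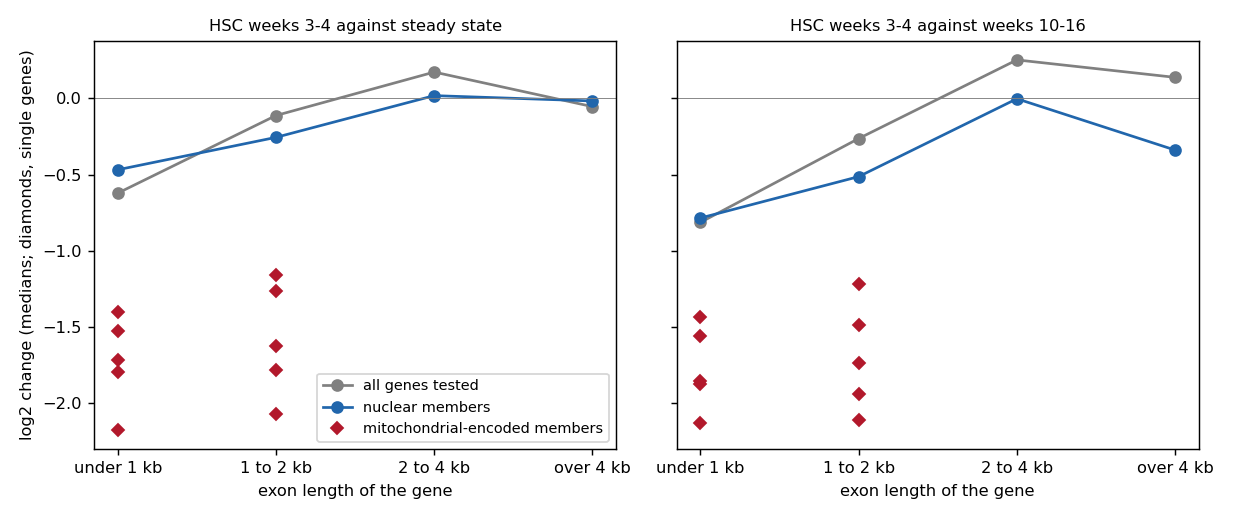
Median log2 change by class of exon length for all genes tested and for nuclear members in HSC at weeks 3-4, against steady state (left) and weeks 10-16 (right), with a diamond for each mitochondrial member. Against weeks 10-16 the median of all genes goes from -0.81 under 1 kb to 0.25 at 2 to 4 kb, and every diamond lies below both medians of its class.

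Markers of other cells differed as well. In HSC at weeks 3-4 the summed CPM of Cd48, Plac8, Flt3 and Dntt was 362 to 749 (49.6 to 466 at steady state, 175 to 941 at weeks 10-16), and that of the megakaryocyte genes Pf4, Ppbp and Itga2b was 655 to 1584 (257 to 1144 and 395 to 3151). The 5 HSC genes summed to 174 to 318 (101 to 686 and 248 to 668). At weeks 5-8 the CD48-positive list summed to 795 to 1659 CPM, and the mitochondrial members to 9380 to 21321 CPM. The part of these cells in the result was not tested.

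At weeks 5-8 and weeks 10-16, HSC members were not called against steady state. At weeks 5-8, 3 genes were called in all (0.0239%), 77 of 88 nuclear members were positive (median log2 change 0.47, all genes -0.03) and 36 were higher at an unadjusted p under 0.05 against 1 lower. DESeq2 called 1 member among 35 genes and limma voom 52 among 758 there. At weeks 10-16 no gene was called (0%), 78 of 88 nuclear members were positive (median 0.32, all genes -0.05), and 7 were higher at an unadjusted p under 0.05. The 10 mitochondrial members had medians of 0.28 and 0.08 in these windows. With RLE scaling, the median over all genes moved to -0.34 and -0.22 and the mitochondrial medians to 0.07 and -0.04, so the sign of the last depended on the scaling, and the nuclear medians stayed positive (0.21 and 0.17).

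In HPC-1 both sets were lower at weeks 3-4, and none was called. The mitochondrial sums had a lowest, median and highest value of 5863, 15359 and 20605 CPM at steady state and 5372, 7919 and 12383 at weeks 3-4, and the nuclear sums 26920, 38072 and 49867 against 23853, 28781 and 36790. Both pairs of groups overlapped. The median log2 change was -1.02 over the 10 mitochondrial members (7 lower at an unadjusted p under 0.05) and -0.67 over the 89 nuclear members (51 lower, 4 higher), against 0.03 over all genes.

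In all, 2 genes were called for HPC-1 at weeks 3-4 (0.0162% of 12364), neither a member (edgeR), DESeq2 called 0 members and limma voom 18 among 864 genes. At weeks 5-8, at weeks 10-16 and between weeks 3-4 and 10-16 no gene was called (0% in each), and unadjusted p under 0.05 was reached by 0, 8 and 1 nuclear members and by 0 mitochondrial members. DESeq2 called 0 members in these 3 comparisons, and limma voom called 1 among 40 genes at weeks 10-16. The mitochondrial sums of HPC-1 at weeks 5-8 (4517 to 23377 CPM) and 10-16 (6293 to 16779) overlapped with steady state.

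Cox5a had medians of 390, 421, 337 and 444 CPM and Cycs 479, 317, 440 and 402 in HPC-1 at steady state and in the 3 windows. The largest difference in size from steady state was -0.18 (weeks 5-8) for Cox5a and -0.75 (weeks 3-4) for Cycs on the log2 scale (edgeR, adjusted p 1.00 and 0.353). Between weeks 3-4 and 10-16 the log2 change was -0.05 for Cox5a and -0.26 for Cycs (edgeR, adjusted p 0.999 for both). For both genes the groups overlapped.

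In HPC-2 the groups overlapped and no member was called. The mitochondrial sums were 3314, 9689 and 14011 CPM at steady state, 2660, 13274 and 18789 at weeks 3-4, 4572, 13106 and 19185 at weeks 5-8 and 2006, 4720 and 16518 at weeks 10-16. At weeks 13 and 16 the 6 libraries lay between 2006 and 5427 CPM, and week 10 lay between 9640 and 16518. The nuclear sums had medians of 26869, 39371, 39469 and 26795 CPM in the 4 groups. Weeks 13 and 16 thus lay below week 10 inside the last window, and 3 of its 9 libraries had few detected genes (1 at 13 weeks and 2 at 16 weeks).

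No gene was called in any of the 4 HPC-2 comparisons (0% of 11885 in each, edgeR), and neither DESeq2 nor limma voom called a member. With the run of description numbers as a block, 28 nuclear members were called higher at weeks 3-4 against steady state (among 2109 genes called in all) and 29 against weeks 10-16 (among 2003). An unadjusted p under 0.05 was reached by 10 nuclear members higher at weeks 3-4, 23 higher at weeks 5-8, 1 lower at weeks 10-16 and 7 higher between weeks 3-4 and 10-16, and by 0 mitochondrial members. The medians at weeks 3-4 against steady state were 0.62 (nuclear) and 0.68 (mitochondrial), at weeks 5-8 0.71 and 0.74, and at weeks 10-16 0.02 and -0.13. The medians over all genes were 0.29, 0.29 and 0.12. Steady-state HPC-2 libraries had 3827 to 13051 detected genes and those of weeks 3-4 11949 to 14985, and the part of this difference was not tested.

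For Cox5a in HPC-2 the log2 changes were 0.17 (weeks 3-4), 0.41 (weeks 5-8) and -0.20 (weeks 10-16) against steady state and 0.37 between weeks 3-4 and 10-16 (edgeR, adjusted p 1.00, 0.938, 1.00 and 1.00). For Cycs they were 0.68, 0.78, -0.12 and 0.80 (edgeR, adjusted p 1.00, 0.645, 1.00 and 1.00). Median levels of Cycs were 320, 490, 531 and 270 CPM, so Cycs had the same order of medians as the nuclear sum.

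Whether the change at weeks 3-4 differed between populations was tested as an interaction. Between HSC and HPC-2, 99 genes of 13727 were called (0.721%), 93 of them more negative in HSC (0.677%), and 1 member was among these: mt-Nd2, with a difference of log2 changes of -2.90 ± 0.68 (edgeR, adjusted p 0.0457). mt-Nd2 had medians of 706 CPM at steady state and 221 at weeks 3-4 in HSC, and 333 and 475 in HPC-2. All 11 tested mitochondrial members had a negative difference (median -2.27, all genes -0.40), 10 of them with an unadjusted p under 0.05. For Cox5a and Cycs the differences were 0.44 (adjusted p 0.805) and -0.65 (0.743).

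The interaction call of mt-Nd2 was kept in 4 of 8 other settings and in 12 of 27 fits with 1 library left out, with log2 differences from -3.42 to -1.87. Without the near-identical libraries 23 members were called among 963 genes called in all, and without HPC-2 steady-state replicate 7 alone, 11 among 382. Between HSC and HPC-1 no gene was called (0% of 14016), all 10 mitochondrial members were negative (median -0.66, none with an unadjusted p under 0.05) and 80 of 89 nuclear members positive (median 0.29, all genes -0.08, 4 higher at an unadjusted p under 0.05). DESeq2 called 0 members and limma voom 1 among 226 genes there. The differences for Cox5a and Cycs between HSC and HPC-1 were 0.67 (adjusted p 0.655) and 0.70 (1.00).

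The clearest difference between populations was Cox6a2, the form of complex IV subunit 6A that is known from heart and skeletal muscle. Its coding sequence has 291 bases and that of the widely expressed Cox6a1 336. A stretch of 90 aligned coding bases is printed from Cox6a2 (chr7:128205900-128205989, minus strand) and Cox6a1 (chr5:115348565-115348654, minus strand; both GRCm38), with capitals at the 42 bases that differ, because reads of that length could tell the paralogues apart.
Cox6a2: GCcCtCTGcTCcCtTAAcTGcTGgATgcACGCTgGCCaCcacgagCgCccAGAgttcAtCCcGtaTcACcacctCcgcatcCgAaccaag
Cox6a1: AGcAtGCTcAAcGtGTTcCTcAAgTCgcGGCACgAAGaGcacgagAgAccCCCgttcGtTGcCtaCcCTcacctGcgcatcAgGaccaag

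Cox6a2 (chr7:128205435-128206387) had counts in all 32 HPC-1 libraries and few or none elsewhere. In HPC-1 it had 28.9, 80.4 and 189 CPM at steady state, 31.3, 57.4 and 89.2 at weeks 3-4, 16.5, 62.9 and 123 at weeks 5-8 and 6.65, 21.6 and 93.6 at weeks 10-16. All 8 HSC libraries at steady state were at 0, and after transplant 3 of 24 HSC libraries had counts, at most 5.13 CPM. Every HPC-1 library thus lay above every HSC library. Cox6a1, by contrast, had group medians between 371 and 746 CPM in all populations.

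At steady state, Cox6a2 was at least 1254-fold higher in HPC-1 (85.4 ± 49.0 CPM, SD, n = 8) than in HSC. Without the near-identical libraries it was at least 1154-fold higher (92.5 ± 48.3 CPM, SD, n = 7). The floor was 3 counts over the HSC group, which covers counting error only. With all libraries, Cox6a2 was the only member called at steady state, among 65 genes (0.573% of 11348, 0.441% in the direction of lower in HSC, edgeR, adjusted p 0.0245). It was called in 9 of 9 other settings and in 16 of 23 fits without 1 library. After transplant the log2 difference between HSC and HPC-1 was -7.58 ± 1.06 (edgeR, adjusted p 1.08e-07), and that between HPC-1 and HPC-2 6.67 ± 1.14 (edgeR, adjusted p 1.98e-05). Both were called in all 8 other settings and in all 8 fits without a week.

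In HPC-2, Cox6a2 counts came mainly from near-identical libraries. Steady-state replicates 5 and 7 had 26.0 and 38.5 CPM and the other 5 were at 0. After transplant, replicate 2 at 8 weeks had 132 CPM, and 3 more libraries had 0.565 to 5.67. Replicates 5 and 7 and the 8-week library were each nearly alike to an HPC-1 library. Cox6a2 was called lower in HSC than in HPC-2 at steady state, as the only member of 151 genes called (1.33%, and 0.256% lower; edgeR, adjusted p 0.0467), but without the near-identical libraries both groups were at 0 and there was no difference. It was called in 4 of 9 other settings.

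**Figure D5:**
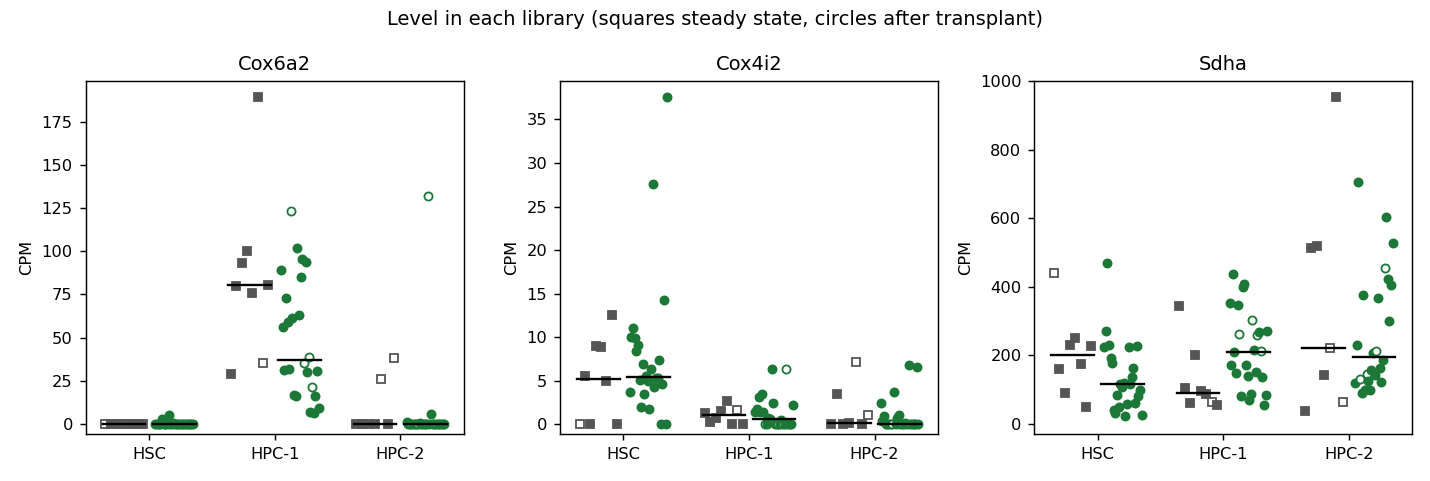
CPM of Cox6a2, Cox4i2 and Sdha in each library by population, with squares for steady state, circles for after transplant, open symbols for near-identical libraries and black lines for medians. All HPC-1 libraries have Cox6a2 counts (6.65 to 189 CPM), and in HPC-2 the 3 values above 20 CPM are open symbols.

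After transplant, 692 genes differed between HSC and HPC-1 over the 8 weeks (6% of 11535, 2.86% higher and 3.14% lower in HSC), and 5 of 99 tested members were among them. Besides Cox6a2, HSC were higher in 3 complex I genes and lower in Sdha. Ndufv3, a subunit of the NADH-binding arm, had a median of 251 CPM in HSC (102 to 592) and 155 in HPC-1 (73.1 to 326), a log2 difference of 0.70 ± 0.19 (edgeR, adjusted p 0.0135). The 24 libraries of either population overlapped.

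Ndufb9, an accessory subunit, had medians of 531 (214 to 1147) and 384 CPM (197 to 676), a log2 difference of 0.54 ± 0.17 (edgeR, adjusted p 0.0388). Ndufa8, also accessory, had medians of 309 (225 to 705) and 250 (194 to 315), a log2 difference of 0.36 ± 0.10 (edgeR, adjusted p 0.0160). The calls of Ndufb9 and Ndufa8 were lost without the near-identical libraries, that of Ndufb9 also without libraries of few detected genes and that of Ndufa8 also with no filter. Ndufb9 was called in 1 and Ndufa8 in 6 of 8 fits without a week. Ndufv3 was kept in all 8 other settings and in 7 of 8 fits without a week.

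Sdha (chr13:74322254-74350280, minus strand) was lower in HSC than in both progenitors after transplant. It had a lowest, median and highest value of 23.2, 117 and 470 CPM in 24 HSC libraries, 56.2, 211 and 437 in HPC-1 and 90.4, 196 and 706 in HPC-2. The log2 difference was -0.80 ± 0.24 from HPC-1 and -0.96 ± 0.24 from HPC-2 (edgeR, adjusted p 0.0263 and 0.00742). HSC themselves ranged by week: 178 to 470 CPM at weeks 3-4, 23.2 to 119 at weeks 5-8 and 26.3 to 227 at weeks 10-16, against 48.8 to 442 at steady state. The groups of weeks 3-4 and 5-8 did not overlap. The call from HPC-1 was lost without the near-identical libraries and with limma voom, and that from HPC-2 with limma voom. They were kept in 5 and 7 of 8 fits without a week.

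Between HSC and HPC-2 after transplant, 618 genes were called (5.36%, 2.87% higher and 2.49% lower in HSC) and 4 nuclear members and no mitochondrial member were among them: Sdha and Atp5b lower, Cox4i2 and Cox7a2l higher in HSC. Cox4i2, the alternative form of subunit 4 of complex IV that is known from lung and low oxygen, was present at low levels, with counts in 22 of 24 HSC libraries (median 5.40, highest 37.5 CPM) and in 9 of 24 HPC-2 libraries (median 0, highest 6.74). The log2 difference was 3.47 ± 0.93 (edgeR, adjusted p 0.0142), and it was called in all 8 other settings and in 6 of 8 fits without a week. Cox4i1, the common form, had group medians of 538 to 1070 CPM, so Cox4i2 was a small share of either population's subunit 4 transcripts.

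Atp5b had medians of 478 (185 to 2148) CPM in HSC and 840 (341 to 2197) in HPC-2, a log2 difference of -0.65 ± 0.21 (edgeR, adjusted p 0.0470). This difference takes all weeks together. Within HSC, every library of weeks 3-4 lay above every later library, as given above, and above the HPC-2 median. Whether Atp5b was lower in HSC than in HPC-2 at weeks 3-4 was not tested. Cox7a2l, which is known for its part in respiratory supercomplexes, had 265 (135 to 372) and 218 (98.3 to 305), a log2 difference of 0.39 ± 0.12 (edgeR, adjusted p 0.0396). The call of Atp5b was lost with limma voom and without the libraries of few detected genes, and was kept in 3 of 8 fits without a week. That of Cox7a2l was lost with limma voom, with no filter and without the libraries of few detected genes, and was kept in 2 of 8. For Cox4i2, Atp5b and Cox7a2l the populations overlapped. Between HPC-1 and HPC-2 after transplant, 561 genes were called (4.86%, 3.19% higher in HPC-1), of which Cox6a2 was the only member.

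Set medians between populations were small after transplant. The median log2 difference over nuclear members was 0.22 (HSC against HPC-1), 0.19 (HSC against HPC-2) and -0.05 (HPC-1 against HPC-2), where all genes had -0.11, -0.03 and 0.03. The mitochondrial medians were 0.28, 0.40 and 0.23, and no mitochondrial member was called (edgeR). At an unadjusted p under 0.05 there were 0, 1 and 0 mitochondrial members, the 1 being higher in HSC than in HPC-2.

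At steady state the largest set differences involved HPC-2. The mitochondrial median was 1.20 for HSC against HPC-2 (6 of 10 higher at an unadjusted p under 0.05), 0.97 for HPC-1 against HPC-2 (5 of 10) and 0.00 for HSC against HPC-1 (0 of 10), with all-gene medians of 0.23, 0.22 and 0.08. For steady-state HPC-1 against HPC-2, 3 genes were called (0.0264%) and 0 members with edgeR, DESeq2 or limma voom, though 22 nuclear members were higher and 2 lower at an unadjusted p under 0.05. Without the near-identical libraries 15 members were called there among 1544 genes called in all, and between HSC and HPC-2 14 among 1574, so calls rose over all genes and not in the members alone. Of the 7 steady-state HPC-2 libraries, 4 had few detected genes, and their part was not tested.

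Cox5a and Cycs were not called between populations. Cox5a was -0.82 (HSC against HPC-1), -0.56 (HSC against HPC-2) and 0.26 (HPC-1 against HPC-2) on the log2 scale at steady state (edgeR, adjusted p 0.578, 0.639 and 0.955). After transplant the values were -0.19, -0.05 and 0.13 (edgeR, adjusted p 0.435, 0.859 and 0.809). Cycs was -0.77, -0.05 and 0.72 at steady state (edgeR, adjusted p 0.909, 0.988 and 0.603) and 0.08, 0.08 and -0.00 after transplant (0.870, 0.860 and 0.998). At steady state Cox5a had 132 to 300 CPM in HSC, 322 to 531 in HPC-1 and 158 to 528 in HPC-2.

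Other members with forms restricted to some tissues were low or absent. Cox7a1, the muscle form of subunit 7A, had counts in 51 of 95 libraries, at most 28.3 CPM. Cox6b2, known from testis, was in contrast present in 94 libraries with a mean of 80.0 CPM. Cox7b2, Cox8c and Ndufa4l2 had no counts in any library, and Cox8b had 4 counts in 1 library.

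Other genes of the pathway were described by lists. In HSC at weeks 3-4 against steady state, no gene was called among 35 tested assembly and cytochrome c biogenesis genes, 28 genes of mitochondrial DNA upkeep, transcription and RNA, 12 nuclear regulators, 8 carriers and uncoupling proteins and 16 enzymes of the citric acid cycle and pyruvate dehydrogenase. Their medians were 0.08, -0.02, 0.02, 0.45 and 0.35. Against weeks 10-16 all 16 citric acid cycle genes were positive (median 0.47) with none called. Among the genes that keep and transcribe the mitochondrial genome, 13 of 28 were positive against steady state, and among mitochondrial members 0 of 10. Any link between the lists and the mitochondrial members was not tested.

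Of 98 list genes tested after transplant, 4 were called between HSC and HPC-1 (4.08%, against 6% of all genes), 4 between HSC and HPC-2 (4.08% against 5.36%) and 2 between HPC-1 and HPC-2 (2.04% against 4.86%), shares below the background. HSC were lower than HPC-1 in Myc (-1.06, adjusted p 0.00143), a regulator of mitochondrial gene programmes, in the carrier Ucp2 (-1.21, adjusted p 0.0327) and in Idh3g of the citric acid cycle (-0.40, adjusted p 0.0369), and higher in the complex II assembly factor Sdhaf4 (0.82, adjusted p 0.0413; all edgeR log2 differences). HSC were lower than HPC-2 in Ucp2 (-1.30, adjusted p 0.0254) and higher in Hsd17b10 (0.57, adjusted p 0.00216), a part of mitochondrial RNase P, in Ssbp1 (0.66, adjusted p 0.0465), which coats single-stranded mitochondrial DNA, and in the ADP/ATP carrier Slc25a4 (0.49, adjusted p 0.0173). HPC-1 were higher than HPC-2 in Ssbp1 (0.73, adjusted p 0.0201) and Slc25a4 (0.51, adjusted p 0.00978).

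The promoters of the nuclear members shared sequence that the rule did not use. RefSeq promoters (GRCm38.p6, 250 bases before to 50 after the start) were matched for 75 of 93 nuclear members, and each motif was searched on both strands in 32851 promoters of 300 bases. The NRF1 motif (its palindromic core, with 1 free base in the middle) was in 19 members (25.3%) and in 4.6% of all promoters. The ETS motif of GABPA, CCGGAAG, was in 18 (24.0% against 8.86%) and the YY1 motif AAGATGGC in 10 (13.3% against 2.75%). At least 1 of the 3 was in 40 members (53.3%) and in 14.69% of all promoters. NRF1, GABPA and YY1 are known regulators of respiratory genes, and a match describes letters, not binding.

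Sdha and Cox6a1 show the repeated NRF1 motif. The Sdha stretch (chr13:74350281-74350358, minus strand, GRCm38.p6) holds 2 matches and the Cox6a1 stretch (chr5:115349011-115349140, minus strand, GRCm38.p6) 2, given in capitals.
Sdha: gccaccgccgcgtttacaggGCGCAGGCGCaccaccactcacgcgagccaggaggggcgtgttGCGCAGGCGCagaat
Cox6a1: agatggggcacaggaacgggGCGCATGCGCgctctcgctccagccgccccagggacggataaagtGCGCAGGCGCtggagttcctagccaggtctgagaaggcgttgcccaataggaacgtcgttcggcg
Of the members called between populations after transplant, Ndufa8 and Sdha hold the NRF1 motif, and in opposite directions relative to HPC-1 (0.36 and -0.80).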

How the data were processed

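The deposited table holds raw counts per gene for 95 libraries. The authors trimmed reads with Trimmomatic 0.36, aligned with HISAT2 2.0.5 to GRCm38 (mm10), and used Picard and featureCounts, per the submitters' processing notes. The strand setting, the treatment of multiply mapped reads and the annotation release are not given in the sources used here. Without strand, reads of overlapping genes on opposite strands, such as mt-Nd6 and its neighbours, may not be told apart.

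Groups came from sample titles, with 2 titles reading "10k" placed at 10 weeks. Levels are plain CPM (counts divided by the library total, times 1e6), and CPM per kb uses exon length from GENCODE M21. That annotation held 99.6% of the gene IDs and 3433 entries had no symbol. No per-sample column was left unused. Total counts had a median of 5628592 per library, and intervals and floors cover counting error only. Pairs of libraries were compared by chi-square over genes, and 6 of 4465 pairs fell under 5 per degree of freedom.

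Tests used edgeR 4.0.16 (quasi-likelihood, TMM scaling, filterByExpr) on the counts in R 4.3.3, in a fit per population over all its libraries (32 HSC, 32 HPC-1, 31 HPC-2), a fit of the 23 steady-state libraries, a fit of the 72 libraries after transplant with week as a term, and a fit per interaction. Benjamini-Hochberg adjustment ran over all genes tested in a comparison, and an adjusted p under 0.05 was a call. Log2 changes come from these fits, and each SE was derived from the F statistic. Simulated data were run only through the HSC, steady-state and after-transplant fits, for the first comparison of each, with changes planted in well-counted genes. The HPC-1, HPC-2 and interaction fits, changes in low genes, near-identical libraries and runs of description numbers were not simulated.

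Members and lists were chosen with earlier results of these data known. Named with fold change and adjusted p were called members (at most the 6 largest changes in either direction) and Cox5a and Cycs. Named with levels were the mitochondrial members, the highest and lowest nuclear member per kb of each complex, and paralogues restricted to some tissues. Atp5b in HSC and the members listed as separated between groups were chosen after their values were seen. Sequences came from GENCODE transcripts and RefSeq promoters.

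Alternatives were DESeq2 1.42.0, limma 3.58.1 (voom with sample weights), RLE scaling, no filter, scaling without mitochondrial genes, a replicate block, a block of description numbers, 1 mean per week, and leaving out libraries of few detected genes, near-identical libraries, single libraries or single weeks. The R package data.table (version 1.17.8), Python 3.11.15, pandas 2.3.3, numpy 2.4.6 and matplotlib 3.10.9 were used for the tables and plots.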

Additional observations from a re-analysis of the deposited data

Results flagged for a closer look

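Single libraries stood apart from the rest of their group for 25 values in 214 groups of 6 to 9 libraries checked, where chance gives about 1 in 20. A library was counted when its gap to the nearest other library was large against the range of the group (Dixon's test). Near-identical libraries account for some of these, and no explanation was tested.

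For Atp5b, the high values were 1544 CPM in HSC steady-state replicate 1, 2148 in HSC at 3 weeks replicate 3, 801.9 in HSC at 6 weeks replicate 3 and 2170 in HPC-2 at 8 weeks replicate 3. Of these, HSC steady-state replicate 1 is a near-identical library. Sdha was high in the same libraries of HSC at 3 weeks (469.6 CPM, replicate 3) and HPC-2 at 8 weeks (368.6 CPM, replicate 3).

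For Cox4i2, a low value of 3.679 CPM stood apart in HSC at 3 weeks replicate 1. High values were 27.54 in HSC at 8 weeks replicate 3, 37.54 in HSC at 16 weeks replicate 3, 6.297 in HPC-1 at 6 weeks replicate 2, 6.303 in HPC-1 at 13 weeks replicate 2 and 3.672 in HPC-2 at 5 weeks replicate 3.

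For Cox6a2, high values were 2.931 CPM in HSC at 4 weeks replicate 2, 5.126 in HSC at 5 weeks replicate 3, 189.0 in HPC-1 steady-state replicate 6, 93.64 in HPC-1 at 10 weeks replicate 1, 1.236 in HPC-2 at 3 weeks replicate 1, 131.7 in HPC-2 at 8 weeks replicate 2 and 5.666 in HPC-2 at 10 weeks replicate 1. The library with 131.7 CPM is nearly alike to HPC-1 at 5 weeks replicate 1.

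Ndufa8 was high in HSC steady-state replicate 3 (514.3 CPM) and in HSC at 13 weeks replicate 2 (704.9), both libraries of few detected genes, and low in HPC-2 at 3 weeks replicate 3 (205.7). Cox5a was high in HPC-1 steady-state replicate 7 (531.4 CPM) and Cycs in HPC-2 steady-state replicate 7 (523.3), which form a near-identical pair. mt-Cytb was low in HSC at 6 weeks replicate 3 (3238 CPM).

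The change of mt-Nd2 at weeks 3-4 differed between HSC and HPC-2 by -2.90 on the log2 scale in a test of the difference itself (edgeR, adjusted p 0.0457).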

How the results depend on the processing

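Of 521 alternative counts of called members over 20 comparisons, 403 stayed within 1.5 times the reported count, and 5 comparisons did so under all alternatives run. Of 1451 alternative values for named genes, 1284 kept their side of the threshold (67 of them uncalled values whose sign changed), 154 lost the call, 8 gained it and 5 reversed. The cause of these moves was not tested, beyond what fewer libraries bring by themselves. RLE scaling moved the median over all genes by more than 0.1 in 12 of 20 comparisons (shifts from -0.36 to 0.24 on the log2 scale).

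Counts of called members follow, for most settings with the number of genes called in all after the word among, since that number moved as well. For HSC weeks 3-4 against steady state (0 among 4), the counts were 9 among 205 with DESeq2 and 7 among 19 with RLE scaling. They were 7 among 569 with limma voom, 2 among 8 with mitochondrial genes left out of scaling and 2 among 8 with 1 mean per week. Without libraries of few detected genes they were 4 among 63, and without near-identical libraries 8 among 39. With single libraries left out they were 0 to 8. For HSC weeks 3-4 against weeks 10-16 (6 among 17), they were 15 among 221 with DESeq2 and 4 with limma voom. They were also 4 with no filter, 4 with a replicate block and 0 to 8 with single libraries left out. With the description-number block they were 0 among 0. With that block, chosen after seeing the data, log2 changes reversed to 0.081 for mt-Nd1, 0.10 for mt-Nd2, 0.26 for mt-Nd4 and 0.030 for mt-Nd5. For HSC weeks 5-8 against steady state (0 among 3), DESeq2 gave 1 among 35 and limma voom 52 among 758. For HPC-1, limma voom gave 18 among 864 at weeks 3-4 and 1 among 40 at weeks 10-16 against steady state. For HPC-2, where 0 were called, the description-number block gave 28 among 2109 at weeks 3-4 against steady state and 29 among 2003 against weeks 10-16.

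Between HSC and HPC-1 at steady state (1 among 65), limma voom gave 7 among 1016. Leaving out libraries of few detected genes gave 2 among 353, and leaving out single libraries 0 to 1. Between HSC and HPC-2 at steady state (1 among 151), the count was 0 with the description-number block (among 2) and limma voom (among 62). It was also 0 with no filter (among 10) and a replicate block (among 1). Without near-identical libraries it was 14 among 1574. With single libraries left out it was 0 to 4 (4 among 590 without HPC-2 replicate 7). There Cox6a2 became 0 without near-identical libraries. For steady-state HPC-1 against HPC-2 (0 among 3), the count was 15 among 1544 without near-identical libraries and 0 to 2 with single libraries left out.

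After transplant, HSC against HPC-1 (5 among 692) gave 13 among 1315 with DESeq2 and 10 among 764 with RLE scaling. It gave 13 among 2342 with limma voom, 16 among 2657 with no filter and 3 among 588 without near-identical libraries. The counts were 3 without week 4 (among 500) or week 6 (among 487). They were 2 without week 5 (among 505) or week 8 (among 536). HSC against HPC-2 (4 among 618) gave 8 among 1671 with DESeq2 and 7 among 774 with RLE scaling. It gave 1 among 1676 with limma voom, 9 among 2331 with no filter and 2 among 811 without libraries of few detected genes. The counts were 8 without week 3 (among 626) and 2 without week 5 (among 435) or 13 (among 403). They were 1 without week 8 (among 399) or 16 (among 567). HPC-1 against HPC-2 (1 among 561) gave 3 with DESeq2 (among 957), RLE scaling (among 584), no filter (among 2053) or a replicate block (among 653). It gave 12 among 1997 with limma voom. The count was 2 without libraries of few detected genes (among 843), week 13 (among 542) or week 16 (among 708). The interaction of HSC with HPC-1 (0 among 0) gave 1 among 226 with limma voom. That of HSC with HPC-2 (1 among 99) gave 11 among 610 with DESeq2 and 2 among 104 with RLE scaling. It gave 0 with limma voom (among 467), no filter (among 0), a replicate block (among 2) or without libraries of few detected genes (among 0). Without near-identical libraries it gave 23 among 963. With single libraries left out it gave 0 to 11 (11 among 382 without HPC-2 steady-state replicate 7).

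Replicate numbers were shared between groups, and the labels do not say that they pair libraries. Deviations of same-numbered steady-state libraries correlated over 0.1 in 6 of 8 pairs of HSC with HPC-1 (0.0513 to 0.209). In those pairs the replicate number also gives the run of description numbers, so a weak shared part cannot be set aside. Such correlations were found in 2 of 7 pairs of HSC with HPC-2 and 1 of 7 of HPC-1 with HPC-2. The replicate block is given only here and within the tallies of other settings. With it the calls of mt-Co1 and mt-Nd1 (HSC weeks 3-4 against weeks 10-16), Cox6a2 (HSC against HPC-2 at steady state), Sdha (HSC against HPC-1), Atp5b (HSC against HPC-2) and the mt-Nd2 interaction were lost. The precision rests on 3 libraries per week, single control libraries moved several counts, and genes with few counts (Cox4i2, mt-Co2, mt-Co3, mt-Atp6) are the least certain.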
